A study of Mus musculus with 20 samples.

Results

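Olfactory receptor genes (Olfr genes in the mouse) were followed in liver with the probes of a whole-genome array. A probe was taken when its gene name began with Olfr and a number, and when the scanner software flagged its signal as well above background in every one of the 4 mice of some strain. Of 55642 non-control probes, 1192 named an Olfr gene (1097 genes), and 130 of these, for 129 genes, met the rule. The 130 probes were therefore selected on their detection flags in each strain, and the strains in which they were detected are given as a description, with no test. The label of detected olfactory receptor probes held in the sense of the flag alone: 123 of the 130 had a mean signal under the 75th percentile of their arrays.

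The study measured total RNA of liver from 20 male mice, with 1 array for each mouse and 4 mice for each of 5 inbred strains. B6 stands for C57BL/6 and NZO for NZO/HiBomDife. DBA stands for DBA/2J, C3H for C3HeB/FeJ, and 129Ola for 129P2/OlaHsd. Every mouse ate the same diet of Research Diets, rich in fat (45%), so no mouse on a control diet enters any comparison. Sampling was at week 6, which the labels allow to be read as age or as time on the diet, and RNA integrity was above the cut of 8 set by the submitters. By the title of the series, B6 and 129Ola are lean strains that resist diabetes, NZO is obese and prone to it, and C3H and DBA are prone to it. Mice are named by strain and animal number.

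Olfactory receptors are G protein-coupled receptors that lie in the cilia of olfactory sensory neurons and bind odorants. They form the largest gene family of the mouse, sit in clusters on most chromosomes, and carry their coding sequence in an uninterrupted exon. In a mature olfactory neuron almost all receptor genes are silent, and the chosen receptor signals through the G protein alpha subunit Gnal, adenylate cyclase Adcy3 and cyclic nucleotide-gated channels. Transcripts of some family members have been described outside the nose, among them Olfr544 in liver and adipose tissue.

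The following probes are shown because their genes gave the clearest strain patterns, and Olfr544 because it was detected in every mouse. Each is a 60-base probe as deposited with the arrays, written 5′ to 3′, with mm9 positions also from the array files. Whether a probe lies in coding or untranslated sequence was not determined, since no mm9 annotation was used.
Olfr701 (chr7:113963917-113963976, plus strand): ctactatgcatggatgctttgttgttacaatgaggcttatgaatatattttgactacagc
Olfr620 (chr7:110760766-110760825, minus strand): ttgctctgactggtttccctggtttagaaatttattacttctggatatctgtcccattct
Olfr224 (chr11, minus strand): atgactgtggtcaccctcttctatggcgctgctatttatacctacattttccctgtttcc
Olfr1535 (chr13:21646970-21647029, minus strand): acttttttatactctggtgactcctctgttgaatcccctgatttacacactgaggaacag
Olfr1466 (chr19:13416809-13416868, plus strand): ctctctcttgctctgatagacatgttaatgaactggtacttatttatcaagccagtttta
Olfr544 (chr7:109632628-109632687, minus strand): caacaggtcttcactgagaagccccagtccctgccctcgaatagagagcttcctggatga

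The array files place only 5 bases of the Olfr224 probe (58379901 to 58379905), so no full interval is given for it. Olfr1033 and Olfr1036 lie on the plus strand of chromosome 2, at chr2:85882347-85882406 and chr2:85915771-85915830, 33.4 kb apart. They are shown against each other, with identical bases in capitals, because their detection is described together below.
Olfr1033: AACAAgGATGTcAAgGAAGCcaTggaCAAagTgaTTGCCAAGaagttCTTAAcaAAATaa
Olfr1036: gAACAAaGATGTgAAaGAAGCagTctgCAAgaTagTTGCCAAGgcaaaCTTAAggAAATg
Set against each other with a shift of 1 base, these probes are identical at 39 of 59 bases (66.1%), and their longest identical run is 8 bases.

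Levels are log2 of the processed signal minus the 75th percentile of the array, so that 0 is the signal of that percentile and 1 unit is a factor of 2. Between 40.0 and 59.0% of all probes were well above background on an array. B6 and NZO arrays were scanned on days 1 and 2. Of the DBA arrays, 1 was scanned on each of these days and the other 2 on day 3, which holds no other strain. By contrast, all C3H arrays were scanned on 1 further day and all 129Ola arrays on another, on slides of their own and with a later version of the extraction software. For C3H and 129Ola, strain, slide and scan day cannot be told apart. Mice DBA 5 and NZO 7, which share slide 3, stood apart from their strains: each correlated with the mean of the other 3 mice of its strain at r = 0.980 across probes, against 0.985 to 0.996 for the other 18 mice. DBA 5 was over 1 log2 unit above its 3 strain mates at 44 of the 91 olfactory receptor probes detected in DBA, and NZO 7 at 18 of 81, against 0 to 13 in the other mice. Over all probes detected in the strain, of any gene, the same held for 2177 of 27318 (7.97%) in DBA 5 and 1702 of 27501 (6.19%) in NZO 7. DBA 5 and NZO 7 are the only mice of their strains scanned on day 2. The next highest counts were those of the B6 mice of day 2, B6 9 (13 of 87, against 2.11% of all probes) and B6 11 (12 of 87, against 2.09%). The B6 mice of day 1, B6 10 and B6 15, were over 1 unit below their strain mates at 16 and 12 of 87. All 8 hepatocyte marker genes (such as Alb and Ttr) were detected on all 20 arrays.

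Olfactory receptor probes were detected far less often than probes at large. The rule held for 10.9% of Olfr probes and for 51.1% of all non-control probes. The pheromone receptor families gave 20 of 176 Vmn1r probes (11.4%) and 10 of 122 Vmn2r probes (8.20%). Of the taste receptor probes, 4 of 37 for Tas2r genes and 2 of 3 for Tas1r genes passed, and none of the 15 probes for trace amine-associated receptors did.

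On single arrays, 140 to 232 Olfr probes were detected in B6, 123 to 208 in NZO, 131 to 190 in DBA, 85 to 120 in C3H and 40 to 64 in 129Ola. Every C3H and 129Ola array lay below every array of the other 3 strains. Of the 130 member probes, 87 were detected on all 4 arrays in B6, 81 in NZO, 91 in DBA, 66 in C3H and 29 in 129Ola, and 58 were detected on no 129Ola array. The same order in outline held for the whole array: of the 28417 probes of any gene that met the rule, 94.3% were detected on all 4 B6 arrays, 81.1% on all 4 C3H arrays and 73.1% on all 4 129Ola arrays. The lowest level called well above background was −4.33 to −3.84 on B6 arrays and −2.96 to −2.56 on 129Ola arrays, so a dim probe needed a higher level on 129Ola arrays to be detected. In whole liver, fewer cells of a type and less RNA per cell cannot be told apart.

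The strains that shared a member varied widely. Of the 130 probes, 37 (28.5%) were detected on all arrays of only 1 strain, 26 of 2 strains, 26 of 3, 18 of 4, and 23 (17.7%) of all 5. Among all 28417 probes that met the rule, 7.58% belonged to 1 strain and 70.2% to all 5. The most frequent set after all 5 strains was B6, NZO and DBA together (15 probes), equal to the set of all strains except 129Ola (15). DBA alone held 13 probes, B6 alone 12, C3H alone 7, NZO alone 5 and 129Ola alone 0.

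The probes detected throughout B6 alone were both Olfr1036 probes and those of Olfr1135, Olfr1180, Olfr1307, Olfr1341, Olfr1383, Olfr531, Olfr611, Olfr702, Olfr843 and Olfr965. In NZO alone these were Olfr279, Olfr620, Olfr701, Olfr794 and Olfr796. The 13 of DBA included Olfr1410, Olfr170, Olfr631 and Olfr910, and the 7 of C3H were Olfr1148, Olfr1346, Olfr141, Olfr671, Olfr704, Olfr746 and Olfr945. DBA and C3H shared Olfr151, Olfr30, Olfr330, Olfr700 and Olfr738. The only probe of B6 and 129Ola was Olfr1033, the only one of NZO and 129Ola was Olfr224, and the only one of B6, C3H and 129Ola was Olfr681. Olfr414, Olfr441 and Olfr48 were shared by all strains except C3H. In B6, NZO and DBA, most probes missing from a strain's list were still detected on some of its arrays: only 3 of the 130 were on no B6 array, 3 on no NZO array and 8 on no DBA array. In C3H 24 were on no array. Detection throughout a single strain did not always go with the highest signal there. Olfr1307, whose probe has 10 spots, averaged −1.55 in B6, −1.50 in NZO and −1.37 in C3H. Olfr1383 averaged −2.97 in B6 and −2.61 in C3H. Both Olfr1036 probes had their highest mean in B6.

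Strain means of a member differed by a median of 1.62 log2 units between the highest and the lowest strain, against 0.822 over all probes that met the rule. The range passed 3 units for 9 member probes (6.92%, against 3.34% of all such probes) and stayed under 1 unit for 22. The 15 probes with the widest measured range were Olfr1033, Olfr701, Olfr1535, Olfr1466, Olfr224, Olfr620, Olfr1036, Olfr151 and Olfr1441, the other Olfr1036 probe, Olfr1410, Olfr30, Olfr681, Olfr524 and Olfr704. Strain means below background have a floor that differs between strains, so no order is read from these ranges. For a probe that was well above background on no array of a strain, a fold is given as a lower bound. It sets the brighter strain's mean against a floor for the dimmer strain. The floor of an array was the lowest signal flagged well above background on it, or the probe's own signal where that was higher, and the floors of the 4 arrays were averaged.

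Olfr1033 was detected on all B6 and all 129Ola arrays and on no other array. Its levels were −0.63, −0.36, −0.40 and −0.51 in the 4 B6 mice and 0.41, 0.12, 0.76 and 0.53 in the 4 129Ola mice. In NZO they were −5.22, −4.83, −4.26 and −4.54, in DBA −5.91, −5.04, −6.09 and −5.89, and in C3H −5.37, −5.33, −4.94 and −4.30. The high and the low strains were thus separated by several log2 units with no mouse between them. B6 was at least 10.5-fold above NZO and at least 10.6-fold above DBA, and 129Ola at least 11.1-fold above C3H. B6 and 129Ola are the strains described as resistant to diabetes. The probe was chosen by these detection calls, so the match with that class is given with no test.

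Olfr1036 showed a related but weaker pattern. Its probe at chr2:85915771-85915830 had levels of −2.45, −2.18, −2.25 and −2.14 in B6 and −2.83, −2.73, −2.10 and −2.24 in 129Ola, where 2 of 4 arrays were called well above background. The mean was −6.04 in both NZO and DBA and −5.06 in C3H, on no array above background. The 129Ola mice therefore missed the detection rule while their levels overlapped those of B6. The other Olfr1036 probe, 0.575 kb before it at chr2:85915196-85915255, read −2.60 ± 0.20 (SD, n = 4) in B6 but −4.68, −4.71, −2.58 and −4.28 in 129Ola, with none of these called. The B6 level was at least 3.05-fold above NZO and at least 3.08-fold above DBA for the first of these probes.

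Within 100 kb of the Olfr1033 probe lie 11 other Olfr probes, of which 5 were detected on no array. Olfr1030, 57.8 kb before it, was detected on all arrays of every strain except 129Ola and on no 129Ola array, with means of −2.45 in B6, −2.35 in NZO, −2.17 in DBA and −2.34 in C3H. The Olfr1032 probe, at −33.5 kb, is identical to the Olfr1033 probe at 50 of 60 bases (83.3%) and was above background on no array, with a mean of −4.91 in B6 and −4.72 in 129Ola.

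Olfr701 was detected throughout NZO alone. The NZO mice read −0.96, −0.71, 0.05 and −0.03. All 4 B6 mice were below background (−6.18 ± 0.25, SD, n = 4), as were C3H and 129Ola, so that NZO was at least 12.7-fold above B6. DBA mice were spread widely, with −4.52, −5.53, −2.22 and −3.25, and 2 of the 4 arrays were above background. No mouse of another strain reached the NZO levels. A further Olfr701 probe, 6.19 kb before it, was above background on only 1 of the 20 arrays, in NZO.

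Olfr224 was detected in NZO and 129Ola. Levels were −0.79, −0.88, −0.96 and −1.15 in NZO and −0.37, −1.10, −0.66 and −0.83 in 129Ola, which overlap. B6 (−4.56 ± 1.27), DBA (−4.94 ± 0.96) and C3H (−3.71 ± 0.30; SD, n = 4 each) were below background on every array. The NZO level was at least 8.43-fold above B6 and 7.55-fold above DBA, and 129Ola was at least 4.84-fold above C3H.

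Olfr620 gave a similar set of strains with wider spread. NZO read −2.50, −1.54, −1.15 and −0.72, and 129Ola −0.85, −3.79, −1.53 and −2.05 with 3 of 4 arrays above background. B6, DBA and C3H were below background throughout, and NZO was at least 6.03-fold above B6 and at least 5.21-fold above DBA. For Olfr1033, Olfr701 and Olfr224, mice DBA 5 and NZO 7 lay within the range of the other mice of their strain. For Olfr620 this held for NZO 7, whereas DBA 5 (−3.78) read above the other DBA mice (−6.12, −6.11 and −5.92), with all 4 below background.

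Olfr1535 was high in B6, NZO and C3H, lower in DBA, and lowest in 129Ola. Its levels were 2.40, 2.06, 2.46 and 2.40 in B6, 2.94, 3.30, 2.15 and 2.32 in NZO and 2.27, 2.33, 2.48 and 2.33 in C3H. In DBA they were 0.79 in mouse DBA 5 and −1.62, −1.46 and −1.31 in the other 3, and in 129Ola −3.23, −2.51, −3.57 and −1.91, where 1 array was above background. All DBA mice were below all mice of B6, NZO and C3H, and all 129Ola mice were below all DBA mice.

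Olfr1466 was detected in every strain except 129Ola. Means were −0.99 ± 0.22 in B6, −0.42 ± 0.18 in NZO, 0.20 ± 0.19 in DBA and 0.72 ± 0.23 in C3H (SD, n = 4 each). The 129Ola mice read −4.88, −4.82, −1.59 and −3.90, and only the third of these was above background. They lay below every mouse of the other strains.

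A different kind of pattern separated mice of the same strain. B6, NZO and DBA each had arrays scanned on day 1 and on day 2, and many members read higher on day 2 in all 3 strains. Olfr151 was −1.33 and −0.88 in the B6 mice of day 2 (mice 9 and 11) and −6.03 and −5.92 in those of day 1. In NZO it was −0.98 in the mouse of day 2 and −5.75, −3.34 and −3.05 in those of day 1, and in DBA −0.50 against −3.39. The 2 DBA mice of day 3 read −3.45 and −3.13. Within each of these strains the mice of day 2 were above all others, and the 4 mice of day 2 lay between −1.33 and −0.50 whatever their strain.

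In a limma fit with strain and scan day over these 12 arrays, 29 of the 130 members (22.3%) differed between day 2 and day 1 at an adjusted p under 0.05, 25 higher on day 2 and 4 lower. Over all probes tested, 5.19% did. The detection rule did not use scan day, but the comparison was chosen after the values had been seen. Among the 56 members above background on all 12 arrays, 11 differed (9 higher, 2 lower), against 4.34% of all probes of that kind. The median difference was 0.41 for members and −0.06 for all probes. Among other chemoreceptor probes that passed the detection rule, it was 0.38 for 20 Vmn1r and 0.29 for 10 Vmn2r probes. For 2 Tas1r probes it was 0.97 and for 4 Tas2r probes −0.17. A higher median on day 2 was thus not particular to the members. By strain the member medians were 0.08 in B6, 0.59 in NZO and 0.67 in DBA, against 0.02, −0.11 and −0.11 for all probes, and day 2 of NZO and of DBA is 1 mouse each (NZO 7 and DBA 5). Day 2 arrays lie on slides 3, 4 and 5 and day 1 arrays on slides 1 and 2, so slide and scan day cannot be told apart. When each RNA was extracted is not given in the sources used here.

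Part of these calls rested on the mice of slide 3. Without NZO 7, 14 members were called, and without DBA 5, 22. Without both, day 2 is read from B6 alone, and 4 members were called (Olfr30, Olfr1148 and Olfr700 higher, Olfr392 lower; 3.08%), against 0.222% of all probes. In B6 alone, 70 of the 130 members read higher on day 2, a share similar to that of all probes tested (15040 of 28417). The median difference was 0.08, against 0.02 for all probes.

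Among members above background on all 12 arrays, Olfr94 (2.16), Olfr612 (1.67), Olfr629 (1.38), Olfr97 (1.31) and Olfr549 (1.28) were higher on day 2 in the fit. Several other members called were below background on every day 1 array of a strain, where a fitted difference is no measure of size and only a lower bound can be given. In B6, day 2 was at least 7.69-fold above day 1 for Olfr700, 7.30-fold for Olfr141, 7.05-fold for Olfr151, 5.05-fold for Olfr1148, 4.38-fold for Olfr30 and 4.32-fold for Olfr910. Their limma adjusted p values included 0.00584 for Olfr151, 0.0022 for Olfr1148 and 0.00163 for Olfr30. Olfr1148 was also at least 4.66-fold above day 1 in NZO and 6.18-fold in DBA. Olfr30 shows the size in single mice: B6 read −1.93 and −1.65 on day 2 and −5.00 and −6.02 on day 1. For NZO the values were −1.09 on day 2 and −4.09, −3.73 and −3.04 on day 1.

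The 4 members that were lower on day 2 were Olfr392 (−1.45, SE 0.12, adjusted p = 0.000766 in the limma fit), Olfr1537 (−1.46), Olfr945 (−1.61) and Olfr1131 (−1.25). Olfr392 was −2.88 and −2.68 in the B6 mice of day 2 and −1.01 and −1.26 in those of day 1. Its single day 2 mice also lay below all day 1 mice in NZO (−3.30 against −1.69, −1.88 and −2.03) and in DBA (−3.08 against −1.99).

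The calls by scan day were also counted by set of strains. Of the 5 members shared by DBA and C3H, 4 were higher on day 2 (Olfr151, Olfr30, Olfr700 and Olfr738), as were 3 of the 7 of C3H alone (Olfr1148, Olfr141 and Olfr704) and 3 of the 13 of DBA alone (Olfr170, Olfr631 and Olfr910). Of the 12 probes of B6 alone, 0 were called in either direction in that limma fit (5 had an unadjusted p under 0.05), and of the 5 of NZO alone 0 were called (1 unadjusted). A probe detected on all B6 arrays had to be above background on both days, whereas a probe of C3H alone did not, so the sets do not allow the same differences. The share of all probes called in each set is not given here. These counts are therefore not read as particular to the members. For Olfr1033 the day 2 value was −0.28 from day 1 (SE 0.20, limma adjusted p = 0.48) and for Olfr701 −0.09 (SE 0.31, adjusted p = 0.909), in fits that include mice below background. Of the 5 olfactory sensory neuron markers tested, 0 were called between days (1 with an unadjusted p under 0.05). Of the 20 Vmn1r probes that passed the detection rule, 3 were higher and 2 lower on day 2.

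The 23 members detected on all 20 arrays had ranges of strain means from 0.258 to 1.77, with a median of 1.13. The median was 0.677 for the 19935 probes of any gene detected on all arrays. Selection for detection on every array leaves out values below background, so these ranges are not read against those of the other members. Olfr544, a receptor reported to respond to azelaic acid and to act in lipid metabolism, read 3.43 to 5.08 over the 20 mice with a median of 4.07. Its means were 3.95 ± 0.30 in B6, 4.47 ± 0.42 in NZO, 4.32 ± 0.25 in DBA, 3.63 ± 0.15 in C3H and 4.06 ± 0.12 in 129Ola (SD, n = 4 each). The highest was mouse NZO 7 at 5.08, and Olfr544 was 0.56 higher on scan day 2 than on day 1 (SE 0.12, limma adjusted p = 0.0275). Without scan day in the fit, no tested strain difference of Olfr544 passed the threshold in limma: NZO minus B6 was 0.52 (SE 0.19, adjusted p = 0.0625) and C3H minus 129Ola −0.43 (SE 0.19, adjusted p = 0.0802). With scan day in the fit, Olfr544 was 0.66 higher in NZO than in B6 (SE 0.13, limma adjusted p = 0.00702). With slide as a block instead, this difference did not pass the threshold.

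Among the other always detected members, Olfr522 (mean 0.32), Olfr1368 (0.26), Olfr128 (0.25), Olfr373 (0.15) and Olfr1402 (0.07) lay above the 75th percentile on average. Olfr521, Olfr549, Olfr1384, Olfr1252, Olfr740, Olfr125, Olfr1347, Olfr1372-ps1 and Olfr1229 had means from −0.12 to −1.04. The narrowest strain range was that of Olfr373 (0.258), whose means ran from −0.01 in B6 to 0.25 in C3H. The widest was that of Olfr1384 (1.77), which was −1.05 ± 1.72 in NZO and −0.96 ± 1.41 in DBA, against 0.72 ± 0.32 in C3H (SD, n = 4 each). Its SD among NZO mice (1.72) was close to its range between strains. Olfr1368 was 0.54 ± 0.18 in B6, 0.92 ± 0.13 in NZO and 0.63 ± 0.30 in DBA but −0.19 ± 0.18 in C3H and −0.59 ± 0.53 in 129Ola (SD, n = 4 each), so it was higher in the strains of the first 3 scan days.

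Strain differences were tested with limma only for members well above background on all arrays of both strains, since the rule had used detection in each strain. Calls were made at an adjusted p under 0.05 over all 28417 probes, without scan day in the fit. In NZO against B6, 1 of 63 measured members was called, where 16.8% of all measured probes were. In DBA against B6 it was 3 of 63, against 13.9%. In NZO against DBA, 3 of 66 were called, against 16.4%, and in C3H against 129Ola 2 of 24, against 35.4%. For the 3 susceptible against the 2 resistant strains, built so that an additive effect of the software version cancels, 0 of 23 were called by limma, against 28.7%. The unadjusted p was under 0.05 for 4 of those 23. With scan day as a block, which could be fitted for B6, NZO and DBA, 12 of 63 were called in NZO against B6 (19.0%, against 16.5% of all measured probes), 5 of 63 in DBA against B6 (against 10.4%) and 1 of 66 in NZO against DBA (against 10.4%).

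The share called in NZO against B6 was thus below that of all measured probes without scan day in the fit (1 of 63, against 16.8%). With scan day it was close to that share (12 of 63, 19.0% against 16.5%). These fits also differed in their arrays, since only B6, NZO and DBA entered the fit with scan day. With slide as a block instead, no member was called. The change between the fits is therefore not read as an effect of scan day alone. Of the 12 called with scan day, 10 were higher in NZO: Olfr94, Olfr103, Olfr1143, Olfr1077-ps1, Olfr703, Olfr544, Olfr521, Olfr1466, Olfr1350 and Olfr373. Their differences were 0.32 to 1.12. Olfr392 (−0.63) and Olfr1372-ps1 (−0.41) were lower.

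Without scan day in the fit, the members were measured less precisely than other probes. For NZO against B6 the median SE was 0.39 for measured members and 0.16 for all measured probes, and the median size of the difference was 0.34 against 0.22. For C3H against 129Ola the median SE was 0.32 against 0.14, and the median size 0.45 against 0.28. Without DBA 5 and NZO 7, the counts were 4, 7, 1, 8 and 2 in the order above. The share of all measured probes called in those fits is not given here, so these counts are not read against other probes.

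Olfr1535 gave the largest called difference. It was 3.23 log2 units lower in DBA than in B6 (difference −3.23, SE 0.44, limma adjusted p = 3.06e-05) and 3.58 lower in DBA than in NZO (SE 0.44, adjusted p = 9.89e-06). Within scan day 1 the DBA to B6 difference was −3.85 and within day 2 −1.64; with scan day in the fit it was −2.75 (adjusted p = 0.00233). The difference of NZO from DBA was 4.09 within day 1 and 2.51 within day 2. Without DBA 5 these differences were −3.80 and 4.14.

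Olfr125, in the chromosome 17 cluster beside the major histocompatibility complex, was lower in DBA (−1.36 ± 0.12) than in B6 (−0.12 ± 0.52; SD, n = 4 each), a difference of −1.24 (SE 0.31, limma adjusted p = 0.00991). All DBA mice lay below all B6 mice. The difference was −1.62 within day 1 and −1.03 within day 2, with an adjusted p of 0.0919 with scan day in the fit and 0.319 with slide. Olfr187 was higher in DBA (−1.08 ± 0.22) than in B6 (−2.03 ± 0.43) by 0.95 (SE 0.28, adjusted p = 0.0269) and than in NZO, where mouse NZO 3 read −0.97 and the other 3 −2.41 to −2.19 (NZO minus DBA −0.87, SE 0.28, adjusted p = 0.0406). With scan day in the fit, the adjusted p was 0.219 for the difference from B6 and 0.225 for that from NZO.

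Olfr331 was lower in NZO than in DBA (−0.94, SE 0.29, limma adjusted p = 0.0314), with NZO at −3.02, −2.68, −1.56 and −1.83 and DBA at −1.83, −0.98, −1.33 and −1.17, which overlap. With scan day in the fit its adjusted p was 0.182. The pseudogene Olfr1077-ps1 was higher in NZO than in B6 (0.84, SE 0.26, adjusted p = 0.0328), with NZO at −2.13, −2.60, −2.14 and −2.12 and B6 at −3.40, −2.88, −3.50 and −2.58. It kept an adjusted p of 0.0324 with scan day in the fit and had 0.318 with slide. Leaving out single mice ended the calls of Olfr187, Olfr331 and Olfr1077-ps1: mouse B6 9, B6 11 or DBA 15 for Olfr187 against B6, NZO 3, NZO 7, DBA 8, DBA 9 or DBA 15 for Olfr331, and B6 9, B6 11, NZO 3, NZO 9 or NZO 11 for Olfr1077-ps1. The call of Olfr187 between NZO and DBA was lost without any 1 of 9 mice.

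In C3H against 129Ola, where strain and scan day cannot be told apart, Olfr128 was higher in C3H (0.93 to 1.17) than in 129Ola (−0.03, 0.01, −1.48 and 0.56), with no overlap. The difference was 1.28 (SE 0.35, limma adjusted p = 0.00999), and it stayed called whichever of the 20 mice was left out. The pseudogene Olfr1372-ps1 was higher by 0.43 (SE 0.14, adjusted p = 0.0228), an adjusted p that was 0.123 with slide as a random block and that missed the threshold without C3H 5, 129Ola 4 or 129Ola 7. The median difference of all probes between these strains was −0.14 and moved to 0.02 when arrays were scaled on probes detected everywhere. Where a member was on no array of 1 of these strains, C3H was the brighter for 16 probes, by at least 1.13- to 3.15-fold, and 129Ola for 2 (Olfr1033 and Olfr224). Olfr151 (at least 3.15-fold) and Olfr122 (at least 3.13-fold), both also higher on scan day 2, had the highest bounds of C3H over 129Ola.

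By position, the 127 mapped members lay on 16 chromosomes. Chromosome 7 held 35 of its 257 Olfr probes as members, chromosome 2 held 26 of 302, chromosome 11 held 14 of 87, chromosome 9 held 10 of 146 and chromosome 17 held 8 of 52. Joining members less than 1 Mb apart gave 21 clusters of at least 2 members and left 9 members alone.

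The chromosome 2 cluster (chr2:85530201-89818516) held 21 member probes among 206 Olfr probes, with 10 different sets of strains. These were Olfr1008, Olfr1030, Olfr1033, both Olfr1036 probes, Olfr1077-ps1, Olfr141, Olfr1109, Olfr1115, Olfr1131, Olfr1134, Olfr1135, Olfr1143, Olfr1148, Olfr1180, Olfr1211, Olfr1229, Olfr1232, Olfr1252, Olfr48 and Olfr1260. The chromosome 7 cluster (chr7:109632628-112270836) held 19 among 129, with 12 sets: Olfr544, Olfr549, Olfr555, Olfr559, Olfr576, Olfr577, Olfr578, Olfr609, Olfr611, Olfr612, Olfr620, Olfr629, Olfr631, Olfr635, Olfr638, Olfr644, Olfr671, Olfr677 and Olfr681. The chromosome 9 cluster (chr9:37537896-39802332) held 9 among 95, with 6 sets: Olfr151, Olfr901, Olfr907, Olfr910, Olfr1537, Olfr945, Olfr149, Olfr965 and Olfr978. Members within a cluster thus came from many sets of strains.

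Shares varied among the smaller clusters. At chr7:6427601-6523390, 5 of 6 Olfr probes were members (Olfr1346 to Olfr1350), and at chr11:58268658-58515845, 7 of 13, among them Olfr30, Olfr331 and Olfr224, whereas others held 4 of 56 on chromosome 10 and 3 of 37 on chromosome 2. Of 50 pairs of neighbouring members within 100 kb, 7 had the same set of strains. Olfr577 and Olfr578 were 1 such pair (B6, NZO and DBA), and Olfr544 and Olfr549, which were detected in every mouse, were another.

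Detection of a gene rarely extended to a further probe of it. For 15 member genes the array carried 2 probes, and Olfr1036 alone had both as members. Of the other 14 genes' further probes, 12 were on no array, including that of Olfr373, which itself was detected in every mouse. Probes of members had a median GC content of 45.0%, against 38.3% for Olfr probes that were no members and 43.3% for all probes. Members higher on scan day 2 had a median of 45.0%, against 43.3% for other members. For 15 members the probe shared a run of at least 20 bases with the probe of another gene, and the longest, 38 bases between Olfr330 and Olfr328, joined a member to a probe detected on no array. Signal from other transcripts that bind the same probe was not tested.

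Of the 22 mapped probes detected on all 20 arrays, 5 (22.7%) had a probe of a gene outside the family detected on all arrays within 50 kb, compared with 15 of the other 105 members (14.3%) and 136 of 1056 Olfr probes that were no members (12.9%). Olfr549 lay 3.10 kb from Trim21 on the opposite strand, Olfr522 11.0 kb from Sprn on the same strand and Olfr544 15.4 kb from Rrm1 on the opposite strand.

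Genes that serve olfactory receptors in the nose were only partly detected in these livers. Of 12 olfactory sensory neuron markers, 3 (Cngb1, Rtp2 and Ric8b) were detected on all 20 arrays and 2 (Cnga4 and Ano2) on none. Omp, the olfactory marker protein, was detected on all 4 arrays of B6, NZO and DBA each, on 1 of C3H and on 0 of 129Ola. The channel subunit Cnga2 was likewise on all 12 arrays of the first 3 strains, on 2 of C3H and on 1 of 129Ola. Rtp1 was on 2 arrays of B6, 3 of NZO and 2 of DBA, and on 0 of C3H and of 129Ola. Gnal was detected on 9 arrays, Adcy3 on 5, and Stoml3 and Gng13 on 1 each. Omp, Cnga2 and Rtp1 were on fewer arrays in C3H and 129Ola, whereas Cngb1, Rtp2 and Ric8b were on every array of all strains. The mean level of Omp was −3.38 in 129Ola, on 0 arrays, −3.77 in C3H, and −3.33 in B6, on 4. Of the 5 markers tested between C3H and 129Ola, 1 was higher in C3H and 0 lower (35.5% of all tested probes were called). That marker was Cngb1 (0.58, SE 0.19, limma adjusted p = 0.0245). The mean level over the 12 markers was −3.84 to −3.51 in B6, −3.75 to −3.40 in NZO, −3.60 to −3.31 in DBA, −3.72 to −3.24 in C3H and −3.54 to −3.29 in 129Ola. Most of these markers lay below background on some arrays, where the floor differs between strains, so no comparison is read from the ranges. The part of olfactory neuron RNA in the members' signal was not tested.

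Of 24 genes of odorant signalling and receptor trafficking, 12 were detected on all arrays and 16 could be tested. In the limma fit 2 were higher and 2 lower in NZO than in B6 (17.7% of all tested probes were called), 1 higher and 0 lower in DBA than in B6 (14.8%), 2 higher and 3 lower in NZO than in DBA (17%), and 3 higher and 4 lower in C3H than in 129Ola (35.5%). Rtp3, a receptor-transporting protein, was higher in NZO than in B6 by 0.62 (SE 0.13, adjusted p = 0.00205) and than in DBA by 0.57. Adrbk2, a G protein-coupled receptor kinase, was lower in NZO than in B6 (−2.19, SE 0.30, limma adjusted p = 3.11e-05) and than in DBA (−3.16, SE 0.30, adjusted p = 3.87e-07), with 3 of 4 NZO arrays above background. It was higher in DBA than in B6 by 0.96 (adjusted p = 0.0349). Rtp4 was higher in NZO than in DBA by 0.64, and the phosphodiesterase Pde4a was lower in NZO than in B6 (−0.61) and DBA (−0.74).

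Of 11 genes involved in receptor choice in the nose, the transcription factors Lhx2 and Atf5, the cofactor Ldb1, the histone demethylase Kdm1a and the lamin B receptor Lbr were detected on all arrays. Ebf1, Ebf2, Ebf3 and Emx2 were detected on 0 or 1 array. Atf5 was higher in NZO than in B6 by 1.35 (SE 0.13, limma adjusted p = 3.57e-07) and higher in DBA than in B6 by 0.68, and Kdm1a was lower in C3H than in 129Ola (−1.01). Of the 6 genes tested, 1 was higher and 1 lower in NZO than in B6 (17.7% of all tested probes were called). The counts were the same in DBA against B6 (14.8%). In NZO against DBA, 2 were higher (17%), and in C3H against 129Ola 3 were higher and 3 lower (35.5%). Ebf4, among those higher in C3H, was above background on 3 of the 4 129Ola arrays.

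In the promoters of member genes (from 250 bases before to 50 after the start, from RefSeq, GRCm38.p6; 106 genes matched), the homeodomain motif TAATNA, searched on both strands, occurred in 59.4%, against 66.6% of the promoters of other Olfr genes and 26.5% of all promoters. The motif TATAAA occurred in 35.8% of member genes, 41.7% of other Olfr genes and 13.6% of all promoters. The olfactory factor (Ebf) motif occurred in 0.943% (1 of 106 genes), 0.475% and 0.904% in that order. Its inner letters CCCNNGGG, which it contains, occurred in 4.72%, 2.85% and 13.7%. All motifs were searched on both strands and may overlap each other, and a match is not a binding site. The start is that of the RefSeq entry, and for Olfr620 and Olfr1535 it falls on an ATG. For such entries the start may be the start codon, so the window may not hold the promoter. The shares of Olfr genes are therefore not read against those of all promoters.

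Of 6 olfactory receptors with reported roles outside the nose, Olfr544 was the only one detected throughout. Olfr78, Olfr558 and Olfr734 were above background on no array. Olfr1393 and Olfr16 were each above background on 7 of 20 arrays and met the rule in no strain. By signal, the members nearest to the rule's edge were Olfr1180 in B6, whose lowest of 4 levels was −4.25, Olfr794 in NZO (−3.59) and Olfr47 in DBA (−3.59). Just outside it were Olfr868, Olfr456 and Olfr458, which were detected on 3 of 4 C3H arrays with lowest levels of −1.97, −3.02 and −3.03.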

How the data were processed

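Liver RNA of 20 mice was labelled with Cy3 and hybridised to 1-colour Agilent arrays. Per the file headers, the deposited intensity is a background-subtracted and detrended spot signal, not normalised between arrays, computed by Agilent Feature Extraction. The headers name release 11.5.1.1 on C3H and 129Ola arrays and 11.0.1.1 on the others, and contradict release 9.1 in the submitters' processing notes. The deposited detection and outlier flags (0 or 1) were used as given. The authors' value table (37892 probes, intensity scale, background correction unknown, column medians 19.9) served as an alternative.

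Controls (3671 of 62976 spots) and outlier spots (96 to 186 per array) were left out; no spot was saturated. Spots of a probe were averaged, log2 taken, and the 75th percentile of each array subtracted. A probe with several spots counted as well above background on an array only when all its usable spots were flagged so. The precision is limited by 4 arrays per strain. Contrasts between strains were fitted with limma 3.58.1 (R 4.3.3) over all 20 arrays and 28417 probes, with Benjamini-Hochberg adjustment, and the procedure was tested on simulated data. The labels do not say more of the animals than a number. Without scan day in the fit, the p-values rest on the spread among arrays of the same strain. In B6, NZO and DBA this spread holds differences between mice, slides and scan days together. For the strains scanned only on a day of their own, the strain difference itself cannot be told apart from scan day. Scan day was fitted over the 12 arrays of B6, NZO and DBA. For a listed gene with several probes, 1 probe was used.

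The members, lists and tests were chosen with earlier results of these data known. Named are the first 15 members by level among those detected on all arrays, the first 15 by range of strain means, up to 5 called per comparison, members of the 3 fullest clusters, the 3 probes on each side of the detection rule, and 6 receptors with reported roles outside the nose. The scan-day fit, and the members named from it, from the fits with scan day as a block or as detection examples, were chosen after their values were seen. Marker lists of other cell types were checked as well. Of 8 erythroid, 7 Kupffer cell, 7 lymphocyte (T, B and NK cell), 6 testis and 5 skeletal muscle markers, 5, 7, 1, 1 and 0 were detected on all arrays. In the limma fit, 4 of 7 Kupffer cell markers were lower in NZO and in DBA than in B6 (17.7 and 14.8% of all tested probes were called), and 3 of 6 erythroid markers tested were higher in DBA than in B6. Between C3H and 129Ola (35.5%), 5 of 6 erythroid and 3 of 4 testis markers tested were higher in C3H, and of 7 Kupffer cell markers 6 were lower and 1 higher. Prm1 of the testis list was detected in all mice of NZO and C3H and in none of the other strains. Their part in the results was not tested.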

Additional observations from a re-analysis of the deposited data

Results flagged for a closer look

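In groups of 4 mice, a mouse was singled out when its gap to the nearest other mouse, divided by the range of the group, passed Dixon's 95% critical value. Of 214 groups checked among the named members, 10 passed, and chance gives about 1 in 20. Mouse DBA 5 accounted for 4: Olfr549 at 1.29 (other DBA mice −0.08 to 0.11), Olfr1535 at 0.79 (−1.62 to −1.31), Olfr151 at −0.50 (−3.45 to −3.13) and Olfr644 at −0.19 (−3.36 to −3.33). In each it was the highest mouse of its strain.

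Mouse B6 10 was lowest for Olfr1535 at 2.06 (other B6 mice 2.40 to 2.46) and for Olfr638 at −1.49 (−0.94 to −0.90), and B6 9 was lowest for Olfr965 at −3.61 (−2.98 to −2.88). Mouse NZO 3 was highest for Olfr187 at −0.97 (other NZO mice −2.41 to −2.19) and lowest for Olfr1134 at −2.96 (−2.22 to −2.12). NZO 7 was lowest for Olfr1077-ps1 at −2.60 (−2.14 to −2.12).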

How the results depend on the processing

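The number of members was 166 when 3 of 4 arrays sufficed, 137 against the 99th percentile of negative controls, 364 with the positive-and-significant flag, and 130 to 145 without each mouse in turn. Clusters numbered 21, against 26 with gaps of 0.5 Mb and 20 with gaps of 2 Mb.

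For NZO against B6 (1 member called), the count was 0 with quantile normalization, the authors' table, no filter on dim probes, or slide as a block, 2 with the percentile over probes detected everywhere, 4 with normexp and the percentile, 4 with only the strains compared, and 12 (10 higher) with scan day as a block. For DBA against B6 (3) it was 5 with normexp and quantile, normexp and percentile, scan day as a block, or only the strains compared. For NZO against DBA (3) it was 6 with normexp and percentile, and 1 with no filter, with only probes detected on all arrays, or with scan day as a block. For C3H against 129Ola (2) it was 5 with the percentile over probes detected everywhere, 7 with only the strains compared, and 1 with quantile normalization, normexp and percentile, no filter, or slide as a random block. For the susceptible class (0) it was 1 with the percentile over probes detected everywhere, normexp and quantile, normexp and percentile, or only probes detected on all arrays. Leaving out DBA 5 and NZO 7, an alternative chosen after seeing the data, gave 4, 7, 1, 8 and 2 in that order, and 4 in place of 29 for scan day. The causes were not tested, except that fewer probes enter where only probes detected on all arrays are tested. Apart from the fits with scan day described above, the share of all probes called under each alternative is not given, here or below. The changes in these counts are therefore not read as particular to the members.

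Without each mouse in turn the counts ran from 0 to 2 for NZO against B6, 2 to 5 for DBA against B6, 1 to 5 for NZO against DBA, 1 to 6 for C3H against 129Ola, 0 to 1 for the class and 14 to 35 for scan day. The first rose to 2 without NZO 7 or 129Ola 7 and fell to 0 without NZO 3 or NZO 11. The second reached 5 without DBA 5, and the third 5 without DBA 5 and 1 without NZO 7, DBA 8, DBA 9 or DBA 15. The fourth reached 6 without NZO 7 or DBA 5 and 1 without C3H 5 or 129Ola 4. The class had 1 without B6 10, NZO 3, NZO 7, DBA 5, DBA 9, 129Ola 7 or 129Ola 9. Under scaling and background alternatives, scan day gave 25 to 37 called members.

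Animal numbers shared between strains were not taken to pair the mice. Deviations of same-numbered mice correlated at −0.33 (B6 9 and DBA 9, on different scan days) to 0.36 (NZO 9 and DBA 9, both on slide 2). Since these values also carry slide and scan day, they cannot decide whether the numbers pair the mice. With the animal number as a replicate block the counts were 0, 2, 1, 0 and 1 for the 5 comparisons in the order above. Of the checks of single named differences, 529 stayed on the same side, 36 moved, 35 fell short of the threshold and 0 reversed. No scan-day block could be fitted for C3H against 129Ola or for the class. Normexp with an offset of 50 shrinks differences of dim probes by its construction.

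Dim signal limits these data: 123 of 130 members lay under the 75th percentile on average, and 107 fell below background on some array.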
